A study of Mus musculus with 8 samples.

Results

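Ketone body use in the left ventricle was followed through 5 genes, taken by name, with earlier results of these data known. Bdh1, Bdh2, Oxct1, Acat1 and Slc16a1 were taken from a table of 55679 genes, and each matched 1 row. The study compared male wild-type C57BL/6J mice infused with saline for 7 days (control group) and mice infused with angiotensin II, the pressor hormone of the renin-angiotensin system, at 1500 ng/kg/min for 7 days (ANG II group). Pumps under the skin delivered both infusions, each group held 4 left ventricle libraries, and the age of the mice was not given in the sources used here. RNA was measured by RNA sequencing as FPKM, the number of fragments scaled to transcript length and to library size. Levels compared between genes therefore depend on the transcript lengths used.

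Ketone bodies are made from acetyl-CoA in liver mitochondria and carried in the blood to organs such as the heart, which burns them along with fatty acids and glucose. The carrier Slc16a1 (MCT1), which also carries lactate, takes up 3-hydroxybutyrate, Bdh1 oxidises it to acetoacetate in the mitochondria, Oxct1 (SCOT) moves the CoA of succinyl-CoA onto acetoacetate, and Acat1 splits the product into acetyl-CoA for the citric acid cycle. Bdh2 is another 3-hydroxybutyrate dehydrogenase, found in the cytosol. Liver lacks Oxct1 and therefore does not burn the ketone bodies it makes.

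The libraries held between 14455654 and 16564828 fragments, read from the steps of the FPKM values. Mitochondrially encoded genes took 26.3% to 26.9% of them in control and 19.2% to 21.8% in the ANG II group, without overlap. A scaling that left these genes out together with the 10 most abundant genes is given below. The part of this shift alone in the results was not tested. The summed level of 12 cardiomyocyte markers lay between 62001 and 63174 FPKM in control and between 48662 and 51029 FPKM in the ANG II group, so cardiac muscle transcripts were abundant in every library. All 8 fibroblast, all 8 macrophage and all 5 erythroid markers were called higher in the ANG II group as deposited, and no marker of these lists was at 0 in all libraries. Summed fibroblast markers lay between 524 and 790 FPKM in control and between 3355 and 4006 FPKM in the ANG II group, and macrophage markers between 267 and 337 FPKM and between 594 and 829 FPKM. Summed erythroid markers lay between 96.8 and 487 FPKM in control and between 581 and 2083 FPKM in the ANG II group, and the part of these markers in the results below was not tested. Of the other lists, 1 of 8 endothelial, 1 of 4 smooth muscle and 0 of 5 adipocyte markers were called, and of the 12 cardiomyocyte markers 2 were called lower, against 14.0% of all tested genes called higher and 1.41% lower. After median-of-ratios scaling, 6 of 12 cardiomyocyte markers were called lower (4.16% of all genes, list median -0.51) and 0 of 8 endothelial markers were called. After quantile normalization, 1 of 12 cardiomyocyte markers was called lower (5.11% of all genes, list median -0.046). Mb, Tnnt2, Actc1 and Myl3 then turned to higher and Ryr2 and Actn2 to lower, none past the adjusted p-value. Called higher after these scalings were 7 and 6 of 8 fibroblast, 7 and 7 of 8 macrophage and 5 and 5 of 5 erythroid markers (8.65% and 7.33% of all genes). In bulk tissue, fewer cells of a type and less RNA per cell cannot be told apart.

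The 5 genes did not differ in the same direction. Of the 5, Bdh1 rose in the ANG II group, whereas Oxct1, Acat1 and Slc16a1 were lower by 18.7% to 22.4% as deposited. With libraries scaled to cardiomyocyte markers, Oxct1 and Slc16a1 turned, but only to log2 fold changes of 0.039 and 0.033. Acat1 was then at -0.030, and none of these passed (limma adjusted p from 0.65 to 0.679). Bdh2 rested on 4 to 21 fragments per library. Calls needed an adjusted p-value under 0.05 (limma with Benjamini-Hochberg adjustment over 19364 genes) together with an absolute log2 fold change above 0.5. Of the 5 genes, 1 was called higher and 0 lower, against a background of 14.0% called higher and 1.41% called lower over all genes tested. Called genes were higher in 90.8% of cases as deposited, in 67.5% after median-of-ratios scaling, in 58.9% after quantile normalization and in 98.9% per cardiomyocyte marker. On the adjusted p-value alone, 1 was higher and 3 were lower, against 28.4% and 4.91% of all genes (33.3% in either direction, and 15.4% with the fold change threshold). Fold changes were taken on log2(FPKM + 1), which understates the change of low genes, and the tested genes together had a median log2 fold change of 0.15. After median-of-ratios scaling, which moved that median to 0.00, Bdh1 was called higher and Oxct1, Acat1 and Slc16a1 were called lower, against a background of 8.65% and 4.16%. After quantile normalization, 1 of the 5 was called higher and 0 lower, against 7.33% and 5.11%.

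**Figure D1:**
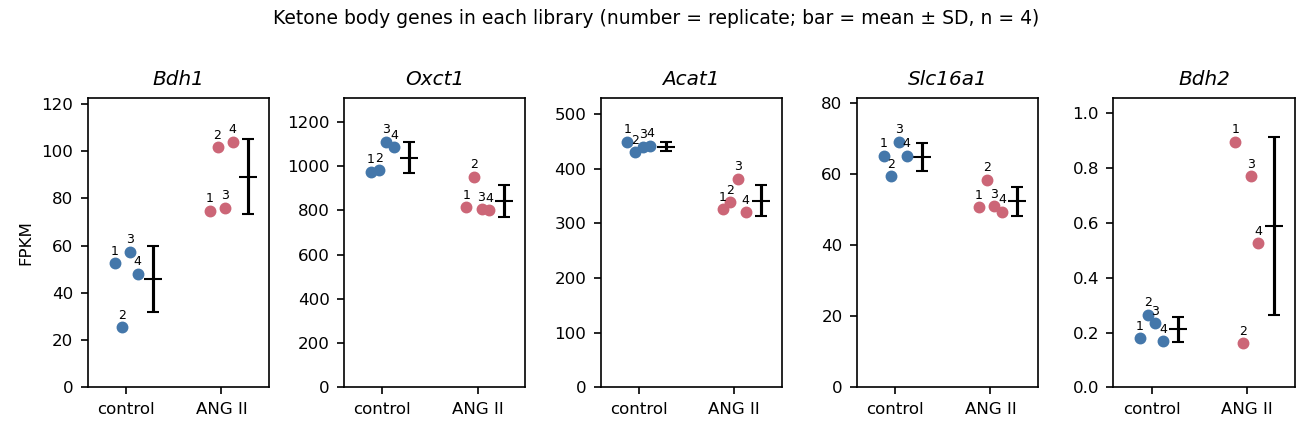
FPKM (vertical axes, from 0) of the 5 ketone body genes in each library, with controls in blue, ANG II libraries in red, numbers for the replicate and black bars for mean ± SD (n = 4). Every ANG II library lay above every control for Bdh1 and, as deposited, below every control for Oxct1, Acat1 and Slc16a1, while Bdh2 overlapped. Per cardiomyocyte marker, Oxct1, Acat1 and Slc16a1 overlapped between groups, with log2 fold changes near 0 (0.039, -0.030 and 0.033).

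Bdh1 catalyses the first step of 3-hydroxybutyrate use (ENSMUSG00000046598, GRCm38 chromosome 16, 31422280 to 31458901, plus strand, protein coding). Control libraries 1 to 4 held 52.5, 25.5, 57.4 and 48.2 FPKM, and ANG II libraries 1 to 4 held 74.8, 102, 76.0 and 104 FPKM. No ANG II library was as low as any control, as for 28.7% of all tested genes, and control 2 was the lowest of all. The mean rose from 45.9 ± 14.1 to 89.1 ± 15.9 FPKM (SD, n = 4 each), a ratio of 1.94. The log2 fold change was 0.99 (SE 0.230, 95% interval 0.47 to 1.5, limma adjusted p = 0.00857 after Benjamini-Hochberg adjustment), or 0.84 once the median of all genes was subtracted. The exact two-sided permutation test gave p = 0.0286, the smallest that 4 against 4 libraries allow. Without control 2, the log2 fold change was 0.73 and Bdh1 was still called (limma adjusted p = 0.00334). The values rested on 602 to 2685 fragments per library. An antisense gene, Gm15743, lies over 13.7% of the Bdh1 exon length and stood at 0.122 to 0.759 FPKM, and the use of strand was not given in the sources used here.

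Oxct1, the enzyme that commits acetoacetate to oxidation (ENSMUSG00000022186, GRCm38 chromosome 15, 4026383 to 4155344, plus strand, protein coding), was the most abundant of the 5 and ranked 53 among the 19364 tested genes by mean FPKM. Its controls held 974, 981, 1110 and 1085 FPKM, and ANG II libraries 1 to 4 held 813, 952, 805 and 801 FPKM. All ANG II libraries lay below all controls, with ANG II 2 only slightly under the lowest control. The mean was 1037 ± 70.1 FPKM in control and 843 ± 73.0 FPKM in the ANG II group (SD, n = 4 each). The log2 fold change of -0.30 (SE 0.0749, 95% interval -0.47 to -0.13, limma adjusted p = 0.012) met the threshold for the p-value and missed the one for size. The exact two-sided permutation p was 0.0286. The antisense gene BC037032 lies over 12.6% of the Oxct1 exon length and held 1.42 to 4.00 FPKM, far below Oxct1, and was called lower (log2 fold change -0.70, limma adjusted p = 0.00376).

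Acat1, the mitochondrial thiolase of the last step (ENSMUSG00000032047, GRCm38 chromosome 9, 53580522 to 53610382, minus strand, protein coding), had controls at 449, 430, 440 and 442 FPKM. The ANG II libraries held 325, 339, 382 and 320 FPKM, each below every control. The mean was 440 ± 8.0 FPKM in control and 342 ± 28 FPKM in the ANG II group (SD, n = 4 each). Its log2 fold change was -0.37 (SE 0.0602, 95% interval -0.50 to -0.23, limma adjusted p = 0.00127), under the fold change threshold as deposited, and the exact two-sided permutation p was 0.0286. Acat1 shared 0 of its 50-base words with other genes, including its cytosolic counterpart Acat2.

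Slc16a1, the carrier (ENSMUSG00000032902, GRCm38 chromosome 3, 104638668 to 104658462, plus strand, protein coding), held 65.1, 59.4, 69.0 and 65.1 FPKM in control and 50.7, 58.4, 50.9 and 49.4 FPKM in the ANG II group. The groups did not overlap, but ANG II 2 came close to control 2, the lowest of the controls. The mean was 64.7 ± 3.95 FPKM in control and 52.3 ± 4.11 FPKM in the ANG II group (SD, n = 4 each). Its limma log2 fold change of -0.30 (SE 0.0669, 95% interval -0.45 to -0.15, adjusted p = 0.00673) was also under the fold change threshold, with an exact two-sided permutation p of 0.0286. As deposited, groups without overlap and lower in the ANG II group were found for 5.06% of all tested genes, and for 3 of these 5.

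Bdh2, the cytosolic dehydrogenase (ENSMUSG00000028167, GRCm38 chromosome 3, 135281221 to 135304426, plus strand, protein coding), held 0.179, 0.266, 0.234 and 0.169 FPKM in control. The ANG II libraries held 0.896, 0.162, 0.770 and 0.526 FPKM, so that 3 lay above all controls and ANG II 2 below them all. These values rested on 4, 6, 6 and 4 fragments in control and 21, 4, 18 and 13 in the ANG II group. The limma log2 fold change of 0.37 (SE 0.147, 95% interval 0.04 to 0.70) did not pass the test (limma adjusted p = 0.0834, exact two-sided permutation p = 0.143). The value depends on the added constant, since it was 0.99 with a pseudocount of 0.1 and 1.16 by limma voom on fragments (adjusted p = 0.105 and 0.126). Per cardiomyocyte marker it was 0.46 and passed the adjusted p-value (limma, 0.0294) but not the threshold for size. Without ANG II 2 it was 0.51 and was called (limma adjusted p = 0.0085). By mean FPKM, Bdh2 ranked 15271 among the tested genes, against 1264 for Bdh1, 174 for Acat1 and 1487 for Slc16a1. In control, the levels followed the order Oxct1, Acat1, Slc16a1, Bdh1 and Bdh2, and no neighbours in that order overlapped. By FPKM, the order of Slc16a1 and Bdh1 was turned in the ANG II group, with Slc16a1 at 49.4 to 58.4 FPKM and Bdh1 at 74.8 to 104 FPKM. That order depends on the mean transcript length, 4426 bases for Slc16a1 and 1617 for Bdh1. By fragments, Slc16a1 stayed above Bdh1 in every library, at 3401 to 4123 against 1834 to 2685 in the ANG II group.

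The sequences before the start sites are shown to set Bdh1, which rose, beside Oxct1 and Slc16a1, whose ratio hardly differed between groups. Windows came from RefSeq (GRCm38.p6) for 4 of the 5 genes, all but Acat1, and the Bdh2 window is described without its sequence. Each is the 250 bases before an annotated start, written 5′ to 3′ on the plus strand, with CG dinucleotides in capitals. RefSeq lists 2 starts for Bdh1, which FPKM per gene cannot tell apart.
Bdh1, first start (chr16:31422047-31422296): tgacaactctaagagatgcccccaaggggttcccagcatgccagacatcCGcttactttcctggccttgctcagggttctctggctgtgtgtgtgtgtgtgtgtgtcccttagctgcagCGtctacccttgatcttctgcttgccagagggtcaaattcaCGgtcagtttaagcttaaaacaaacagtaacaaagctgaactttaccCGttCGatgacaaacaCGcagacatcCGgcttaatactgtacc
Bdh1, second start (chr16:31428503-31428752): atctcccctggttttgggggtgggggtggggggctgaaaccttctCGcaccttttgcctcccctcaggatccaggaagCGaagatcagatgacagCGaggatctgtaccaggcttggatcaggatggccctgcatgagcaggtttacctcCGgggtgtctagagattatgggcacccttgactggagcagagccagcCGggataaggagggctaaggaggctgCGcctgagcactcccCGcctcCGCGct
Oxct1 (chr15:4026178-4026427): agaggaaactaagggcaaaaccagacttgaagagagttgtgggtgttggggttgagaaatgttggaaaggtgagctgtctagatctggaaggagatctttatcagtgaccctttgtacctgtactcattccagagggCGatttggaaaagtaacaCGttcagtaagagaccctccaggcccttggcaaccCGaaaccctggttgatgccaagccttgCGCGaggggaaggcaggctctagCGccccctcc
Slc16a1 (chr3:104638414-104638663): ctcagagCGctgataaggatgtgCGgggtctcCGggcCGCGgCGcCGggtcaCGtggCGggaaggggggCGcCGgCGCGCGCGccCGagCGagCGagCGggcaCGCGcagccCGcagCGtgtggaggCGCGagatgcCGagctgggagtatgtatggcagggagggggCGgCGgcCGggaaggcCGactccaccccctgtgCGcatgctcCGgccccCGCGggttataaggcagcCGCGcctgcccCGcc

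The Slc16a1 window held 37 CG dinucleotides and 76.4% G and C, against 6 and 52% for Oxct1 and 7 and 9 CG dinucleotides for the Bdh1 windows. Over 32851 windows of the same length, the medians were 6 CG dinucleotides and 52.4% G and C. Both strands were searched for the nuclear receptor half-site AGGTCA (in 14% of windows), its extended form TCAAGGTCA (0.387%), the direct repeat AGGTCANAGGTCA (0.0335%), the E-box CACGTG (6.02%), CCAAT (33.8%), GGGCGG (32.7%) and TATAAA (12.4%). The extended form and the repeat contain the half-site. The 2 Bdh1 windows and the Oxct1 window held 0 of these matches, and the Slc16a1 window held CACGTG at -200 to -195 and GGGCGG at -85 to -80, counted from the start. The Bdh2 window held 5 CG dinucleotides, 48% G and C and a CCAAT match on the minus strand at -141 to -137. Oxct1 and Slc16a1 thus differed in CG content and in these letters.

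To compare the steps independently of how libraries were scaled, FPKM ratios were formed within each library. For Bdh1 to Oxct1, controls 1 to 4 stood at 5.39%, 2.60%, 5.18% and 4.44%, and ANG II libraries 1 to 4 at 9.20%, 10.7%, 9.44% and 13%. The groups were far apart, since the lowest ANG II library exceeded the highest control. On the log2 scale the ratio was higher by 1.31 in the ANG II group, or 2.47-fold (exact two-sided permutation p = 0.0286, or 0.0714 after Benjamini-Hochberg adjustment over the 5 ratios tested). Bdh1 to Acat1 lay between 5.93% and 13% in control and between 19.9% and 32.5% in the ANG II group, 2.59-fold higher with the same exact p-values of the permutation test. Both ratios were higher in 4 of 4 ANG II libraries and neither passed after adjustment. With only these ratios at the smallest possible p of 0.0286, the adjusted p could not fall below 0.0714, however far apart the groups were. Both share Bdh1 and are not separate results. Without control 2, the log2 differences were 1.07 and 1.13.

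The other ratios overlapped between groups. Slc16a1 to Oxct1 lay between 6.0% and 6.68% in control and between 6.14% and 6.32% in the ANG II group, with a log2 difference of -0.0053 (SD 0.0703 in control and 0.0186 in the ANG II group, n = 4 each, exact two-sided permutation p = 0.943). Carrier and transferase thus kept almost the same proportion in all 8 libraries. Acat1 to Oxct1 lay between 39.7% and 46.1% in control and between 35.6% and 47.4% in the ANG II group (log2 difference -0.069, exact two-sided permutation p = 0.571). Bdh1 to Bdh2 differed by -0.24 on the log2 scale with an SD of 1.32 among ANG II libraries (exact two-sided permutation p = 0.714), and the few Bdh2 fragments limit it.

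**Figure D2:**
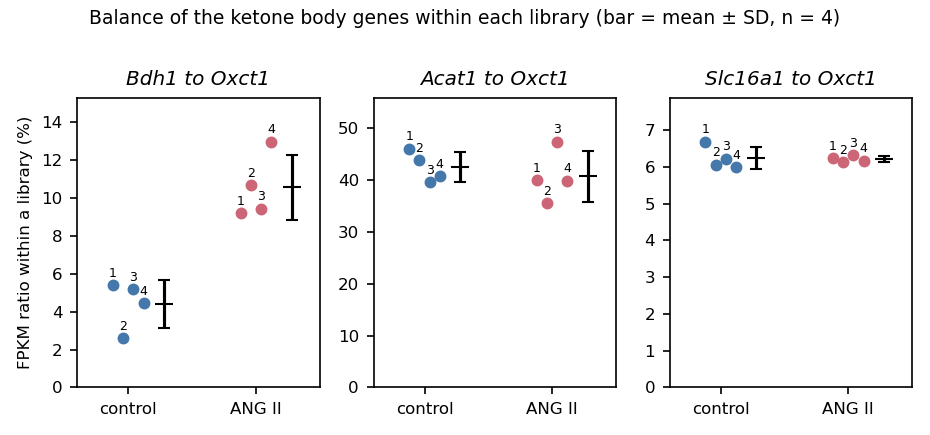
FPKM of 1 gene as a percentage of Oxct1 in the same library (vertical axes, from 0), with controls in blue, ANG II libraries in red, numbers for the replicate and black bars for mean ± SD (n = 4). Bdh1 to Oxct1 was at most 5.39% in control and at least 9.20% in the ANG II group, while Acat1 and Slc16a1 kept overlapping proportions to Oxct1.

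Levels were then set against the summed cardiomyocyte markers of the same library, a scaling chosen after the data had been seen. As deposited, the log2 fold changes of these markers ran from -0.58 (Tnni3) to 0.13 (Tnnc1), with Actn2 at 0.030 and Ryr2 at 0.053. The sum weighs abundant genes most, such as Myl2 at -0.48 and Myh6 at -0.55. Scaling to the 12 summed markers raised the median of all genes from 0.15 to 0.37. Per 1000 FPKM of these markers, Oxct1 was at 16.6 ± 1.10 in control and 17.0 ± 1.12 in the ANG II group (SD, n = 4 each, exact two-sided permutation p = 0.6). Acat1 was at 7.03 ± 0.0791 and 6.89 ± 0.532 (exact two-sided permutation p = 0.657) and Slc16a1 at 1.03 ± 0.0567 and 1.06 ± 0.0605 (p = 0.6, exact permutation), both with overlapping groups (SD, n = 4 each). Bdh1 was at 0.731 ± 0.221 and 1.80 ± 0.310 (SD, n = 4 each) with no overlap, 0.411 to 0.912 in control against 1.53 to 2.13 in the ANG II group. With all libraries scaled in this way, the log2 fold changes were 0.039 for Oxct1, -0.030 for Acat1 and 0.033 for Slc16a1, with limma adjusted p-values from 0.65 to 0.679. Bdh1 had 1.32 (limma adjusted p = 6.1e-04) and was called higher, as were 6671 of the 19441 genes tested under this scaling.

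**Figure D3:**
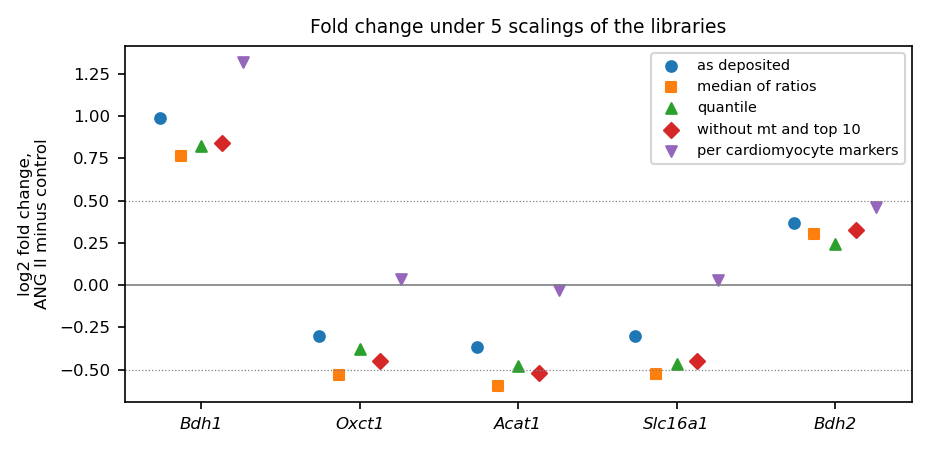
Log2 fold change, ANG II minus control (vertical axis), of each of the 5 genes under 5 scalings of the libraries, with dotted lines at the call threshold of 0.5. Bdh1 lay above the threshold under each, whereas Oxct1, Acat1 and Slc16a1 were below 0 under 4 scalings and near 0, at 0.039, -0.030 and 0.033, per cardiomyocyte marker.

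The other carriers and their partner proteins did not all go the same way. Slc16a3 (MCT4, a lactate carrier of glycolytic cells) held 1.25, 1.15, 0.898 and 1.44 FPKM in control and 9.13, 7.22, 8.39 and 6.88 FPKM in the ANG II group. It rose in every ANG II library, with a limma log2 fold change of 2.03 (SE 0.120, adjusted p = 5.23e-06). Emb (embigin, a partner protein of monocarboxylate carriers) held 0.874, 0.866, 0.723 and 1.09 FPKM in control and 2.68, 2.67, 3.61 and 3.33 FPKM in the ANG II group. It rose as well, by 1.11 in log2 units (SE 0.118, adjusted p = 1.23e-04 by limma), and 9.93% of its exon length lies under the antisense gene Gm17509. Slc16a7 (MCT2) held 4.34, 5.05, 3.73 and 4.02 FPKM in control and 2.82, 2.84, 2.56 and 2.97 FPKM in the ANG II group, with no overlap, a log2 fold change of -0.47 and a limma adjusted p of 0.00613, just under the fold change threshold. It was called lower with a pseudocount of 0.1 and after median-of-ratios and quantile scaling, but not per cardiomyocyte marker (limma adjusted p = 0.117). Bsg (basigin, which brings Slc16a1 to the cell surface) was abundant at 912 ± 19.0 and 879 ± 48.7 FPKM (SD, n = 4 each) and overlapped between groups (limma adjusted p = 0.485, 95% interval of the log2 fold change -0.18 to 0.07). Bsg was at -0.28 after median-of-ratios scaling and turned to 0.29 per cardiomyocyte marker (limma adjusted p = 0.00676 and 0.00144), short of the threshold for size both times. The carriers Slc16a6 and Slc16a8 overlapped between groups and did not pass (limma adjusted p = 0.367 and 0.196), though Slc16a8 was called lower after quantile normalization.

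**Figure D4:**
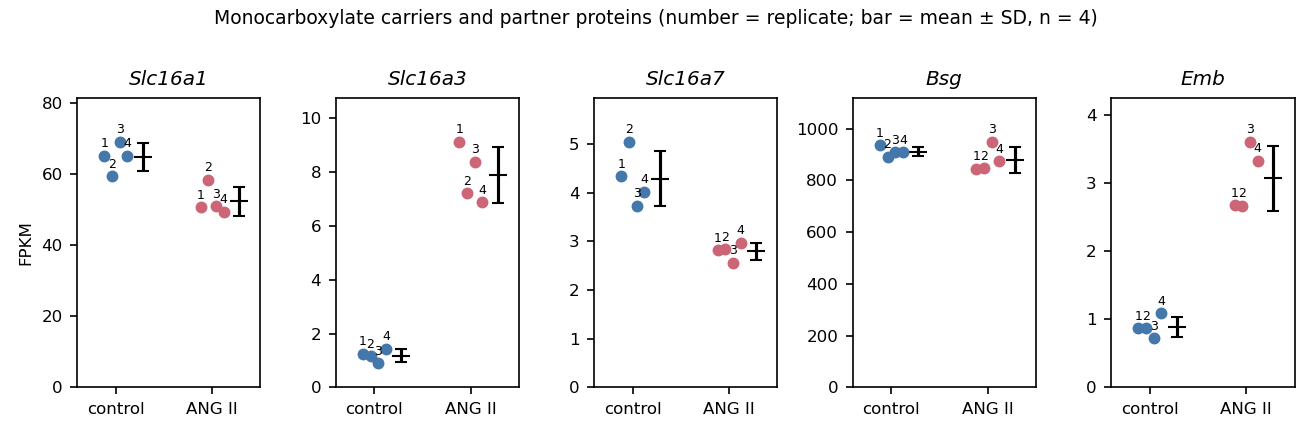
FPKM (vertical axes, from 0) of 3 monocarboxylate carriers and 2 partner proteins in each library, with controls in blue, ANG II libraries in red, numbers for the replicate and black bars for mean ± SD (n = 4). Slc16a3 and Emb were higher in every ANG II library than in any control, Slc16a7 was lower, as was Slc16a1 except per cardiomyocyte marker, and Bsg overlapped and turned direction with the scaling.

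Of 21 other genes of the ketone body pathway, its transport, sensing and control, 14 reached the minimum of 0.1 FPKM and were tested. Of these, 2 were called higher (Slc16a3 and Emb), 1 lower (Ppargc1a), and 11 were not called. Over all tested genes, 14.0% were called higher and 1.41% lower, so the share of higher genes was near the background. Their median log2 fold change was -0.06, against 0.15 over all tested genes, and it was -0.29 after median-of-ratios scaling (0.00 over all genes), -0.23 after quantile normalization (-0.045) and 0.26 per cardiomyocyte marker (0.37), below the median of all genes each time.

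Aacs, which activates acetoacetate in the cytosol for lipid synthesis, lay between 6.73 and 8.25 FPKM in control and between 8.79 and 9.66 FPKM in the ANG II group. Its log2 fold change of 0.34 met the threshold for the p-value (limma adjusted p = 0.00978) and missed the one for size. Per cardiomyocyte marker, where 6671 of 19441 tested genes were called higher, Aacs was called at 0.65. After median-of-ratios scaling it was at 0.14 and did not pass. Acat2 (limma adjusted p = 0.232) is uncertain, because it shares 39.1% of its 50-base words, mostly with Acat3, and it was called higher per cardiomyocyte marker (0.51, limma adjusted p = 0.0294). Of the testis forms of the transferase, Oxct2b was listed at 0 in all 8 libraries and Oxct2a at 1 fragment in 1 library. The receptor gene Ffar3 was also listed at 0 in all 8, and Hcar2, the 3-hydroxybutyrate receptor, held 0 to 6 fragments per library. A value near 0 in this table need not mean low expression, since the smooth muscle gene Tagln was listed at 0 in controls 1 and 2, where Acta2 held 80.7 and 110 FPKM, and this bears on Bdh2 as well.

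Among the controlling genes, Ppargc1a (PGC-1alpha, a coactivator of mitochondrial genes) held 73.8, 50.9, 68.0 and 95.7 FPKM in control and 35.7, 34.6, 40.9 and 38.2 FPKM in the ANG II group. It fell in each ANG II library, with a limma log2 fold change of -0.90 (SE 0.156, adjusted p = 0.0018). Its partners Esrra (limma adjusted p = 0.443) and Ppara (0.324) overlapped between groups and did not pass as deposited. Esrra passed the adjusted p-value as lower after median-of-ratios scaling (-0.29, limma adjusted p = 0.00371) and quantile normalization (-0.23, limma adjusted p = 0.0128) and turned to higher per cardiomyocyte marker (0.27, limma adjusted p = 0.00221), in no case past the threshold for size. Ppara also turned per cardiomyocyte marker, to 0.10 (limma adjusted p = 0.634). The hormone gene Fgf21 held 0 to 6 fragments per library.

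**Figure D5:**
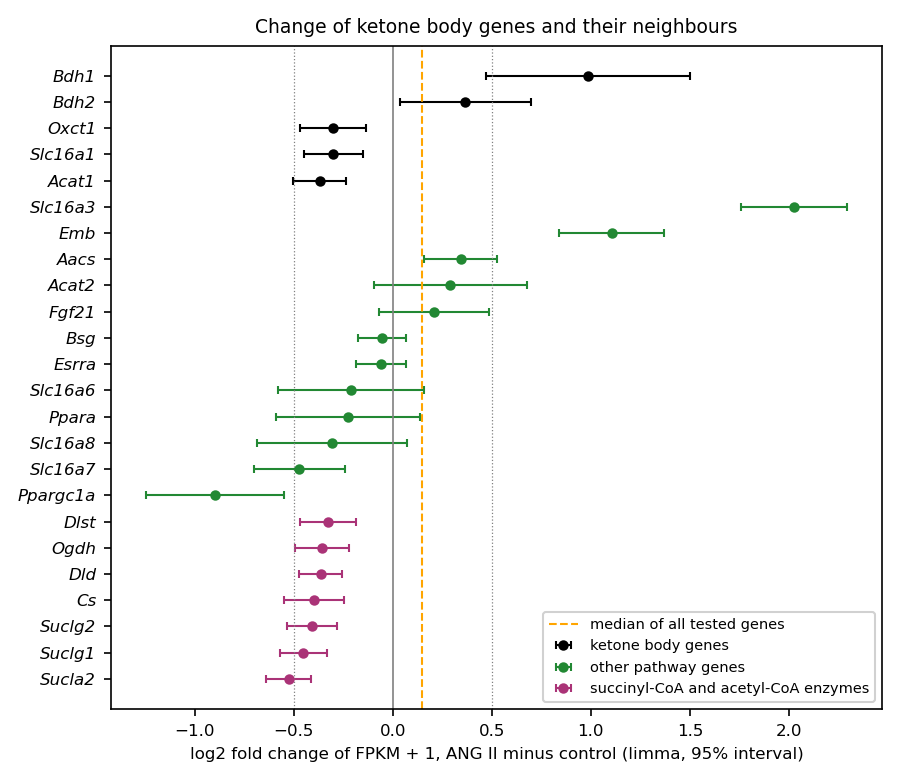
Log2 fold change of FPKM + 1, ANG II minus control (horizontal axis), with 95% limma intervals for the ketone body genes, other tested pathway genes and 7 enzymes of succinyl-CoA and acetyl-CoA. As deposited, Oxct1, Acat1 and Slc16a1 lay at -0.37 to -0.30 beside those enzymes at -0.53 to -0.33, while Bdh1 lay at 0.99, above the orange median of all genes. Per cardiomyocyte marker, Oxct1, Slc16a1 and Dlst turned to near 0, at 0.039, 0.033 and 0.011.

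Oxct1 draws on succinyl-CoA, and the acetyl-CoA that Acat1 releases goes to citrate synthase, so the enzymes on both sides were compared. All 7 (Suclg1, Suclg2, Sucla2, Ogdh, Dlst, Dld and Cs) passed the adjusted p-value and were lower in the ANG II group as deposited, against 4.91% of all tested genes, with log2 fold changes from -0.53 to -0.33 and a median of -0.40. As deposited, only Sucla2, a subunit of succinyl-CoA ligase, passed the fold change threshold as well, against 1.41% of all tested genes called lower. It fell from 790 ± 14.3 to 548 ± 25.9 FPKM (SD, n = 4 each, limma adjusted p = 6.78e-05). After median-of-ratios scaling 7 of the 7 were called lower, and after quantile normalization 4, against 4.16% and 5.11% of all tested genes. Per cardiomyocyte marker, the median of the 7 was -0.06, Dlst turned to 0.011, 0 were called and only Sucla2 passed the adjusted p-value, at -0.19. Of 18 fatty acid oxidation genes, 15 passed the adjusted p-value, all lower as deposited (4.91% of all tested genes), with a median of -0.44 over the list that became -0.10 per cardiomyocyte marker. The 3 called lower, against 1.41% of all tested genes, were the thiolase Acaa2, the isomerase Ech1 and the dehydrogenase Hadh, with log2 fold changes of -0.77, -0.66 and -0.54. After median-of-ratios scaling 14 were called lower and after quantile normalization 12 (4.16% and 5.11% of all tested genes), whereas per cardiomyocyte marker 0 were called. Under that scaling Acaa2 at -0.43, Ech1 at -0.32 and Hadh at -0.20 still passed the adjusted p-value as lower, and 3 other genes of the list passed it as higher. Of all 19441 genes tested under it, 11348 passed the adjusted p-value in either direction, 6671 were called higher and 74 were called lower. Acat1, at -0.37, stood inside the range of both lists, Oxct1, at -0.30, was less negative than the 7 enzymes and inside the range of the fatty acid genes, and Bdh1 stood above both lists, since the fatty acid genes ended at 0.22. Cpt1b and Etfb overlap other genes on their own strand and are uncertain.

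The genes whose log2(FPKM + 1) followed each of the 5 most closely over the 8 libraries were named as a description, since a shared group difference alone gives high values. For Bdh1 they were Samd8 (Pearson r = 0.989) and Bloc1s6 (0.979), both lowest in control 2. Oxct1 was followed by Oxsm and Rtn4ip1 (r = 0.984 for both), which encode mitochondrial proteins. The closest for Acat1 were mt-Nd1 (0.991), a mitochondrially encoded subunit of complex I, and Fam174b (0.986). For Slc16a1 they were Hdlbp (0.984) and Mrps35 (0.981), the latter a mitochondrial ribosomal protein. Bdh2 was followed by Cryl1 (0.992) and Arhgef3 (0.972), which had lower values in ANG II 2 than in the other 3 ANG II libraries, as Bdh2 had.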

How the data were processed

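Total RNA of the left ventricle was selected with oligo(dT) and sequenced as paired ends by the authors, who deposited 1 table of FPKM values per gene with a column for each of the 8 libraries, without pooling. The submitters' processing notes name Bowtie2, HISAT and RSEM. The genome build, annotation and use of strand were not given in the sources used here. One extraction note in the labels names cultured cells, whereas the tissue label and the cardiomyocyte markers give heart. The study's other animals were not analysed here. The labels number the libraries and do not tie them to named animals, so that p-values measure the spread between these libraries.

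Log2(FPKM + 1) was tested with limma 3.58.1 (R 4.3.3, lmFit and eBayes with trend) for the 19364 genes whose mean reached 0.1 FPKM. Benjamini-Hochberg adjustment covered all of these genes. Genes were called at an adjusted p under 0.05 and an absolute log2 fold change above 0.5, thresholds that follow the study's methods. For single values, two-sided exact permutation tests over 70 allocations were run (scipy 1.17.1), which cannot give a p below 0.0286. The median-of-ratios, quantile and cardiomyocyte marker scalings rescaled all libraries before the same test. The limma step was tested on simulated data.

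The low FPKM values were whole multiples of 1 fragment within a tolerance of 0.05 in at least 97.6% of cases per library once multiplied by the mean transcript length of GENCODE M21 (GRCm38), in which 55141 of 55679 genes matched and from which gene positions were taken. Fragments recovered in this way gave the depths and were tested with limma voom as an alternative.

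The members and lists were chosen with earlier results of these data known. The named genes were the 5 members, genes of the pathway and acyl-CoA lists, the 2 genes of at least 1 FPKM most correlated with each member, and up to 3 called genes of the other lists. Cpt1b, Etfb, Tagln, Acta2 and the cardiomyocyte markers were named outside this rule, to show limits of the values. Antisense genes were added after their overlap was found. Some pathway genes are counted in the list but not reported here by name.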

Additional observations from a re-analysis of the deposited data

Results flagged for a closer look

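In 62 groups of 4 libraries, the gap of the highest or lowest library to its nearest neighbour was compared with Dixon's 95% critical value, which chance passes in about 1 group in 20, and 6 groups passed. Both Oxct1 and Slc16a1 were flagged for ANG II 2, which was the highest of its group at 952 FPKM (next 813 FPKM) for Oxct1 and at 58.4 FPKM (next 50.9 FPKM) for Slc16a1, and still below every control. In the control group, Aacs was highest in control 1 at 8.25 FPKM (next 6.78 FPKM). Control 4 was the lowest control for Esrra at 68.7 FPKM (next 75.0 FPKM) and for Suclg1 at 285 FPKM (next 310 FPKM). The log2 ratio of Bdh1 to Bdh2 was lowest among controls in control 2, at 6.58 against 7.94 for the next.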

How the results depend on the processing

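Bdh1 was higher in the ANG II group under all 20 alternatives, at 0.73 to 1.32 on the log2 scale, and was called under 19, the exception being a fold change threshold of 1, under which 0.99 was not called, 0 members were called and 795 genes were called in all. Without a fold change threshold, 6447 genes, 4 members (with Oxct1 at -0.30, Acat1 at -0.37 and Slc16a1 at -0.30) and 5 of 14 pathway genes (3 higher and 2 lower, against 28.4% and 4.91% of all genes) were called. Median-of-ratios scaling gave 4 members (Oxct1 -0.53, Acat1 -0.60, Slc16a1 -0.53) and 5 of 14 pathway genes, 2 higher and 3 lower (8.65% and 4.16% of all genes), and quantile normalization gave 6 of 14, 2 higher and 4 lower (7.33% and 5.11%). Scaling without mitochondrially encoded genes and the 10 most abundant genes gave 2 members (Bdh1 0.84 and Acat1 -0.52), with Oxct1 and Slc16a1 at -0.45 and not called. Of 19326 tested genes, 1957 were then called higher (78.2% of called genes) and 545 lower. Per cardiomyocyte marker, a scaling chosen after seeing the data, 6745 of 19441 tested genes were called, 6671 higher and 74 lower. Beside that background, 5 of 14 pathway genes were called, 4 higher and 1 lower. The median of all genes moved to 0.37, and Oxct1 and Slc16a1 turned to 0.039 and 0.033, neither past the adjusted p-value. Limma voom on recovered fragments called 3997 genes and the same count of members, 1. Leaving out 1 library gave 2763 to 3109 genes, 1 to 2 members and 3 to 4 pathway genes, with Bdh1 at 0.73 to 1.11, Bdh2 at 0.27 to 0.51 (called without ANG II 2), Oxct1 at -0.36 to -0.27, Acat1 at -0.42 to -0.34 and Slc16a1 at -0.35 to -0.27. The log2 ratio differences then ranged from 1.07 to 1.42 for Bdh1 to Oxct1, from 1.13 to 1.5 for Bdh1 to Acat1, from -0.14 (without ANG II 3) to -0.0067 (without ANG II 2) for Acat1 to Oxct1, from -0.84 to 0.13 for Bdh1 to Bdh2 (turned without ANG II 1, at 0.13, and without ANG II 3, at 0.049) and from -0.024 to 0.028 for Slc16a1 to Oxct1 (turned without control 1, at 0.028, and without ANG II 2, at 0.00069). From FPKM + 1, the Bdh1 to Bdh2 difference was 0.62. Where a value or call changed with the scaling or a left-out library, the cause was not tested.

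Same-numbered libraries did not deviate together (correlations of -0.032 to 0.062), so that the numbers do not pair them. With the replicate number as a block, 2968 genes were called, Bdh1 kept its call (limma adjusted p = 0.0233) and no other member was called. In the blocked exact permutation test, the ratio differences of 1.31 and 1.38 for Bdh1 to Oxct1 and to Acat1 had p = 0.125, the smallest that 4 pairs allow. Depth limits Bdh2, with 4 to 21 fragments per library.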
